A study of Homo sapiens with 12 samples.

Results

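The regions described here are stretches of promoter DNA at which phosphoserine STAT3 (pSTAT3), but not BCL9, was found in control cells. They were chosen by measured values. Each ChIP-exo peak pair of a control library became a window of 100 bp at its midpoint, overlapping windows of an antibody were merged, and merged regions with windows from at least 2 of 3 control libraries were kept. Of the 37044 control pSTAT3 regions, 28502 overlapped none of the 11623 control BCL9 regions, and 3290 of these had their midpoint within 1 kb of a protein-coding transcription start site (TSS) on hg19. These 3290 promoter pSTAT3-only regions made up 8.88% of all control pSTAT3 regions. They were set beside the 25212 distal pSTAT3-only regions, which lay farther from a TSS, and the 526 promoter shared regions, which overlapped a BCL9 region.

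The cells were DCIS.COM, a human breast line that serves as a model of basal ductal carcinoma in situ, kept in medium with horse serum. BCL9-knockdown cells carried an shRNA against BCL9 in a pLKO.1 vector, and control cells carried a non-silencing shRNA. ChIP-exo trims immunoprecipitated chromatin with an exonuclease, so that paired borders of reads mark where a protein was crosslinked. The lists of peak pairs analysed came from 2 knockdown pSTAT3, 3 control pSTAT3, 2 knockdown BCL9, 3 control BCL9 and 1 control CTCF libraries. The antibody against pSTAT3 recognises a phosphoserine of STAT3. The labels call the libraries of a group biological replicates and do not say whether the knockdown cells were 1 clone. The only p-value given pools the knockdown libraries of both antibodies, so it measures no spread between replicates of 1 group. The loss of BCL9 protein cannot be checked from peak lists.

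STAT3 is a transcription factor that JAK kinases activate downstream of gp130 cytokine receptors such as that for IL-6, and it binds DNA as a dimer at a palindrome. Serine phosphorylation in its transactivation domain modulates its activity. BCL9 has no known DNA-binding domain of its own and is best known as the coactivator that joins β-catenin to Pygopus in Wnt signalling.

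The DNA at the centre of the members held 2 motif strings far more often than promoters at large. One is GCGCNTGCG, the core of the palindrome bound by nuclear respiratory factor 1 (NRF1), a factor of CpG-rich promoters. The other is TGACTCA, bound by dimers of the FOS and JUN families (AP-1). In the printed windows of 100 bp, from the plus strand of GRCh37 (the same build as hg19) at region midpoints free of annotated exons, capitals mark the named string on either strand. The NRF1 string stood in the regions at RFX2 (chr19:6199678-6199777), LRRC27 (chr10:134145542-134145641) and EID2B (chr19:40023498-40023597), shown as the best-ranked members that hold it.
RFX2: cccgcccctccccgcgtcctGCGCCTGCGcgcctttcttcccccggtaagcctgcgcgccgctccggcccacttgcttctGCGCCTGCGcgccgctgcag
LRRC27: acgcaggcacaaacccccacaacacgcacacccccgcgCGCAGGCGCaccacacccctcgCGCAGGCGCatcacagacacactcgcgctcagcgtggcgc
EID2B: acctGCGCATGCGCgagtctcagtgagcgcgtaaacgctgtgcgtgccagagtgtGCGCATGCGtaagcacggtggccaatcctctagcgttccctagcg

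The AP-1 string stood in the regions at GSN (chr9:124049429-124049528), EMP3 (chr19:48829322-48829421) and CLIP1 (chr12:122885176-122885275), again the best-ranked that hold it. The GSN and EMP3 windows each held it 2 times, once on each strand.
GSN: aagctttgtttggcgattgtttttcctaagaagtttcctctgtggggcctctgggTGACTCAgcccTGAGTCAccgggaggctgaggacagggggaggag
EMP3: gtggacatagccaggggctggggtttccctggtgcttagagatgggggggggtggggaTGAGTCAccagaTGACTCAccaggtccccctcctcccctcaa
CLIP1: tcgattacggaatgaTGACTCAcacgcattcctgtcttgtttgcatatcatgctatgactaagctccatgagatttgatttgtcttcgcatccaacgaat

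The STAT dimer site TTCNNNGAA, the site STAT3 itself is known to bind, was rarer among the strongest members. It is shown at SCAF11 (chr12:46384598-46384697) and HABP2 (chr10:115311959-115312058), beside the ETS string CCGGAAG at NME1 (chr17:49230787-49230886), for comparison with the NRF1 and AP-1 windows. The HABP2 window also holds the AP-1 string, left in lower case.
SCAF11: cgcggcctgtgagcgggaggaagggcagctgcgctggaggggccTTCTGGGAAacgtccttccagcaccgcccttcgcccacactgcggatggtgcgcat
HABP2: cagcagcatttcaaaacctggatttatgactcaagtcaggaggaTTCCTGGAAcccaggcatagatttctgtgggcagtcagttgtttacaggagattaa
NME1: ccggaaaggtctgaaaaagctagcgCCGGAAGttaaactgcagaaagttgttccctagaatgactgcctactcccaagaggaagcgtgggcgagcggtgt
Of the 300 best-ranked members, 163 had an exon-free window that could be printed. Among these, 65 held the AP-1 string, 16 the NRF1 string, 5 the ETS string and 4 the STAT string.

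The members lay close to the TSS and were rich in G and C. The midpoint was within 100 bp of the nearest TSS in 35.2% of them and within 250 bp in 58.7%, against 34.6% and 58.7% of promoter shared regions. The share upstream of the TSS was 59.8%, with a median offset of -36 bp. Introns held 40.3% of the midpoints, UTRs 23.7%, coding exons 4.89%, other exons 3.53% and DNA outside genes 27.6%. Members spanned 100 to 783 bp, with a median of 182 bp. The median GC content of the central 100 bp was 61% in members, 57% in promoter shared regions and 46% in distal pSTAT3-only regions, and the median number of CpG dinucleotides was 6, 3 and 1 in the same order. Genes on both strands had a TSS within 1 kb of 10.4% of members and of 5.32% of promoter shared regions.

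**Figure D1:**
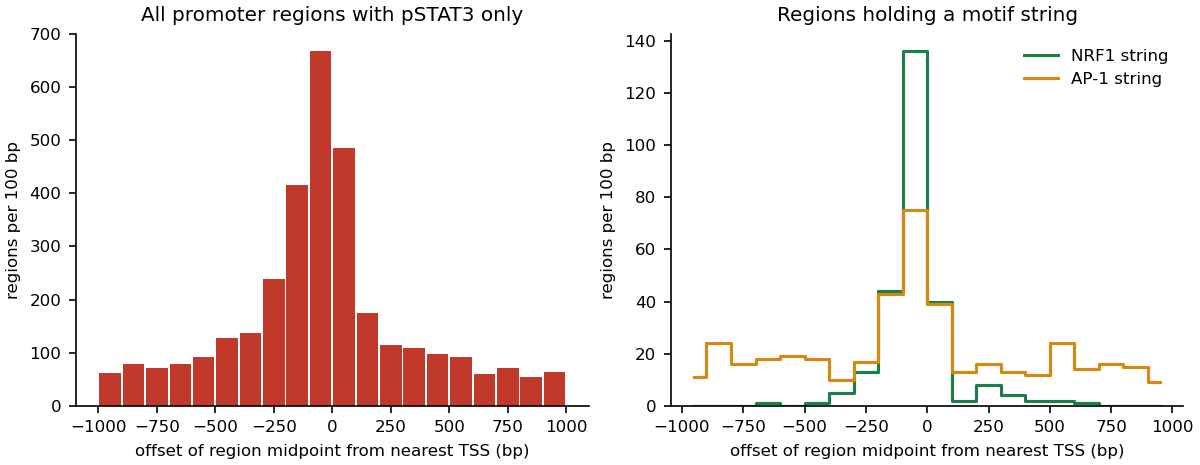
Number of promoter pSTAT3-only regions per 100 bp of offset between the region midpoint and the nearest TSS (x axis, bp, negative upstream), for all 3290 members (left) and for those whose central 100 bp held the NRF1 or the AP-1 string (right). The bin from -100 to 0 bp held 667 members, 136 with the NRF1 string and 75 with the AP-1 string, and AP-1 regions reached far on both sides.

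Most members were weak. Windows of all 3 control pSTAT3 libraries were present in 762 members (23.2%) and of 2 libraries in 2528. All 3 were present in 53.6% of promoter shared regions and 29.5% of distal pSTAT3-only regions. Since presence in control cells chose the members, these shares are given as a description. The strongest window of a member had a median of 5, 7 and 7 tags in the 3 control pSTAT3 libraries, and the lists start at 4, 6 and 4 tags. A tag here is the smallest step of a library's signal, and tags were not corrected for depth. The signal cannot separate how many cells had a position occupied from how strongly each cell had it occupied. Without control pSTAT3 replicate 3, the longest list of its group, regions from both libraries left gave 949 members, and without replicate 1 they gave 1440.

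The choice against BCL9 left some BCL9 windows in place, because 1 control BCL9 library was not enough for a BCL9 region. No control BCL9 window overlapped 2159 members (65.6%), a window of 1 library overlapped 1088, and 43 had windows of 2 or 3 libraries that did not overlap each other. In none of the 5 BCL9 libraries, knockdown and control, was there a window at 1215 members (36.9%). The distance threshold cut through weak regions. The regions at NOTCH2NLA and NBR1 were the last inside, both at 999 bp, with 4 and 6 tags in control pSTAT3 replicate 3. Those at IGFN1 and BCAM were the first outside, both at 1004 bp, with 15 and 6 tags in the same library.

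The strongest member lay on the TSS of EXOC8, a subunit of the exocyst that tethers secretory vesicles, where SPRTN, a protease for DNA-protein crosslinks, starts on the other strand. Its midpoint was 2 bp inside the 5′ UTR of EXOC8 (chr1:231473370-231473821), and the 100 bp at its strongest peak pair held the NRF1 string. It had 95 and 195 tags in the knockdown pSTAT3 libraries, against 80, 126 and 160 tags in the control pSTAT3 libraries. BCL9 windows were absent from all 3 control libraries and from knockdown replicate 2, with 7 tags in knockdown replicate 1. The next member lay in an intron of GSN, which encodes the actin-severing protein gelsolin, 609 bp downstream of the nearest TSS. It had 223 and 161 tags in knockdown pSTAT3 libraries, against 52, 64 and 172 tags in control pSTAT3 libraries. Here the BCL9 antibody had 21 and 53 tags in knockdown cells, against 21 tags in control replicate 3 alone, so the 2 regions differed in BCL9 windows although both were selected as free of a BCL9 region.

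Regions with the NRF1 string among the leading members had few or weak BCL9 windows. At ZNF652, which encodes a zinc finger protein, pSTAT3 had 28 and 53 tags in knockdown libraries, against 58, 62 and 69 tags in control libraries, and the BCL9 antibody had 6 tags in knockdown replicate 2 and 12 tags in control replicate 3. At RFX2, a transcription factor of cilium genes, pSTAT3 had 50 and 54 tags in knockdown libraries, against 47, 40 and 50 tags in control libraries, and the BCL9 antibody had 11 and 5 tags in knockdown cells, against none in control cells. At N6AMT1, a methyltransferase gene whose strongest peak pair held the NRF1 string, pSTAT3 had 43 and 67 tags in knockdown libraries, against 43, 39 and 63 tags in control libraries, and no BCL9 library had a window. CCDC12, which encodes a spliceosome-associated protein, and ANKRD26, which encodes a centriolar protein, also had no window in any BCL9 library. At LRRC27 the pSTAT3 windows had 40 and 17 tags in knockdown libraries, against 21, 30 and 35 tags in control libraries.

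Leading members with the AP-1 string all had BCL9 windows. Those with neither string also had them, but ADI1, FAM98A and XRCC5 had a window in only 1 knockdown library and none in control cells. That was fewer than at the NRF1 regions of ZNF652 and RFX2. Of all members, 36.9% had no window in any BCL9 library. EMP3, an epithelial membrane protein gene, had 66 and 115 pSTAT3 tags in knockdown libraries, against 24, 30 and 46 tags in control libraries. CLIP1, which encodes a protein of growing microtubule ends, had 53 and 51 pSTAT3 tags in knockdown libraries, against 22, 29 and 62 tags in control libraries, and 9 and 8 BCL9 tags in knockdown libraries, against 8 tags in control BCL9 replicate 3. LMNA, the lamin A/C gene, had 83 and 54 pSTAT3 tags in knockdown libraries, against 28, 24 and 98 tags in control libraries. These 3 regions each had a window in at least 1 knockdown and 1 control BCL9 library. The same held for TRIB1, a pseudokinase gene, whose BCL9 windows had 37 tags in knockdown replicate 2, against 21 and 7 tags in control replicates 2 and 3. The leading members without either string stood at TUBD1 and RPS6KB1 (47 and 64 pSTAT3 tags in knockdown libraries, against 37, 39 and 71 tags in control libraries), at ADI1, at FAM98A and at XRCC5, the gene of the Ku80 subunit of DNA end joining (104 and 134 tags in knockdown libraries, against 70, 28 and 50 tags in control libraries). The BCL9 antibody had 20 tags at TUBD1 in knockdown replicate 2, against 8 and 12 tags in control replicates 1 and 2. It had 7 tags at ADI1 in knockdown replicate 1. In knockdown replicate 2 it had 5 tags at FAM98A and 7 tags at XRCC5.

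Ranking by the knockdown pSTAT3 lists brought up further regions. Among them were those at MTHFD1L, a mitochondrial folate enzyme gene, ABR, MAP2K3, a kinase of the p38 pathway, SEPTIN9, a cytoskeletal septin gene, and VGLL4, a cofactor of TEAD factors. At ABR the pSTAT3 windows had 85 and 69 tags in knockdown libraries, against 22, 12 and 17 tags in control libraries. The groups did not overlap at ABR, but the region was chosen on these knockdown values and the tags carry each library's depth. Of the 663 members with windows in all 5 pSTAT3 libraries, 203 (30.6%) had both knockdown values above every control value, against 39.2% of all control pSTAT3 regions with windows in those libraries.

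Over all members, the NRF1 string was more frequent than in either other class, whereas the AP-1 string was most frequent in distal regions. The NRF1 string was in the central 100 bp of 259 members, or 7.87% (95% Wilson interval 7.0 to 8.84, counting error only). It was in 1.90% of promoter shared regions (1.04 to 3.46) and 0.12% of distal pSTAT3-only regions, and windows at the same offsets from all 78394 TSSs held it in 1.94% of cases. The AP-1 string was in 12.8% of members (11.7 to 14.0), 15.0% of promoter shared regions (12.2 to 18.3), 28.8% of distal pSTAT3-only regions and 1.19% of windows at the same offsets from all TSSs. The members thus held the NRF1 string 4.07 times and the AP-1 string 10.8 times as often as all promoters. Only 3 members held both.

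The remaining strings stayed nearer to the level of all promoters. The STAT string was in 3.07% of members (2.53 to 3.72) and 2.33% of all promoter windows, a ratio of 1.32. The GC box GGGCGG, bound by SP and KLF factors, was in 25.9% of members and 20.2% of all promoter windows (16.4% of promoter shared and 3.66% of distal regions), the ETS string in 3.68% and 2.91%, and the E-box CACGTG, bound by MYC and USF factors, in 3.04% and 2.11%. The TEAD string GGAATG was in 6.84% of members and 4.48% of all promoter windows, and the cyclic AMP response element (TGACGTCA or TGACGTAA) in 0.88% and 0.50%. Below the promoter level were the CCAAT box, bound by NFY, in 9.18% of members and 11.6% of all promoter windows, and the TATA string TATAAA in 1.79% and 3.91%. The strings AAGATGGCG of YY1, AGGGGGCGC of CTCF, TTGCGCAA of C/EBP factors and ACTACAATT of ZNF143 were each in under 1% of members. Both strands were searched, and a match is a description of the letters and no evidence of a bound factor.

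**Figure D2:**
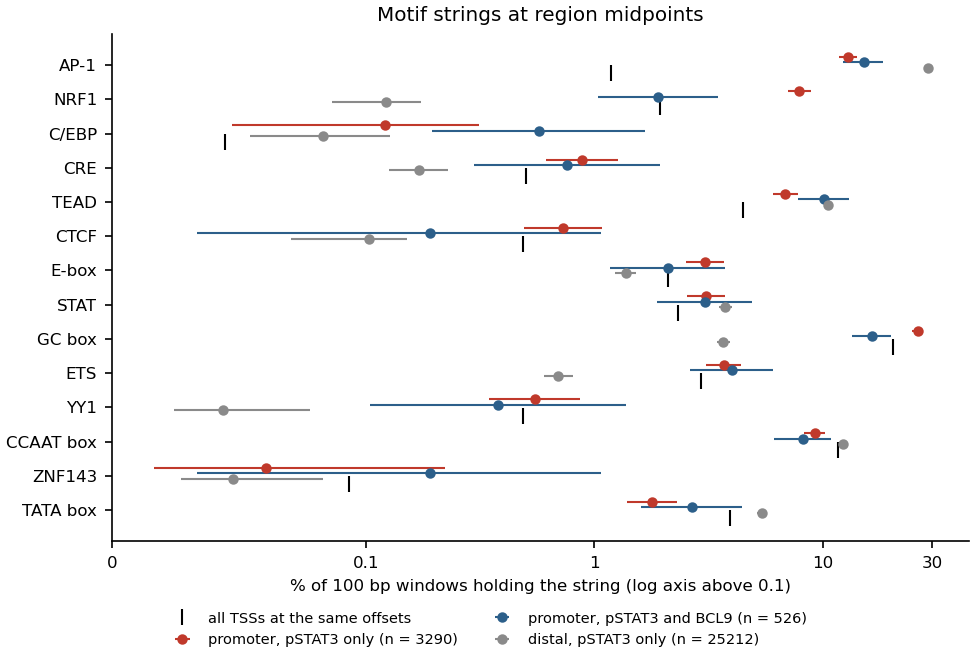
Percent of central 100 bp windows that held each motif string (x axis, log above 0.1) in members, promoter shared and distal pSTAT3-only regions, with 95% Wilson intervals, and at the same offsets from all TSSs (black ticks). Strings are ordered by the ratio of members to all TSSs. NRF1 was at 7.87% in members, 1.90% in promoter shared regions, 0.12% in distal regions and 1.94% at all TSSs.

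Both strings became more frequent towards the strong end of the members. Counted in the 100 bp at the strongest control pSTAT3 peak pair, AP-1 was in 42.0% of the 50 best-ranked members (29.4 to 55.8), 38.0% of the next 150, 18.1% of the other 562 found in all 3 control libraries and 9.06% of the 2528 members found in 2 control libraries. NRF1 was in 20.0% (11.2 to 33.0), 18.0%, 11.2% and 6.29% of the same groups. The GC box changed little, with 18.0%, 25.3%, 27.9% and 25.7%. Rank and the peak position come from the control signal that chose the members.

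The 256 members with the NRF1 string alone and the 419 with the AP-1 string alone sat at different places. The median distance to the TSS was 49.5 bp for NRF1 regions and 354 bp for AP-1 regions, and 89.1% and 44.6% of them lay within 250 bp. Genes on both strands flanked 21.1% of NRF1 regions, 5.01% of AP-1 regions and 10.2% of members with neither. The median GC content was 70% in NRF1 regions and 55% in AP-1 regions. Presence in all 3 control pSTAT3 libraries was alike, at 40.2% and 42.0%, against 18.5% of the 2612 members with neither string.

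Windows of both antibodies were less frequent at NRF1 regions than at AP-1 regions in knockdown cells. For BCL9 this order was not particular to knockdown cells. Control BCL9 windows were at 2.34%, 0.78% and 22.3% of NRF1 regions and 4.30%, 3.58% and 32.9% of AP-1 regions. Control pSTAT3 windows, which chose the members, were at 89.5%, 54.7% and 96.1% of NRF1 regions. They were at 83.5%, 61.1% and 97.4% of AP-1 regions, so control library 1 had the opposite order. In knockdown libraries 1 and 2, pSTAT3 windows were at 82.0% and 84.4% of NRF1 regions, 88.8% and 89.7% of AP-1 regions, and 64.6% and 66.9% of members with neither string. BCL9 windows in knockdown libraries 1 and 2 were at 13.7% (upper bound 18.4) and 27.7% (22.6 to 33.5) of NRF1 regions, at 30.1% (25.9 to 34.6) and 60.4% (55.6 to 65.0) of AP-1 regions, and at 25.7% and 44.7% of members with neither. Both knockdown BCL9 libraries showed the same order. The intervals cover counting error over regions, which are not replicates, so they do not test this order. For pSTAT3 the intervals overlapped in both knockdown libraries, with upper bounds of 86.2 and 88.3 at NRF1 regions and lower bounds of 85.4 and 86.5 at AP-1 regions. With lists of equal length, pSTAT3 windows were at 11.7% and 10.2% of NRF1 regions and 23.6% and 21.5% of AP-1 regions, and BCL9 windows at 5.86% and 0.78% of NRF1 regions and 13.8% and 10.3% of AP-1 regions. As a description of a group that the control windows themselves define, of the 118 members with windows in all 5 pSTAT3 libraries and in no BCL9 library, 40 held the NRF1 string (33.9%, 26.0 to 42.8) and 14 the AP-1 string (11.9%, 7.20 to 18.9).

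To describe the antibodies beyond the members, all occurrences of the strings within 1 kb of a TSS were taken by sequence alone, with the reversed letters of each string as a control. This comparison was added after the motif shares had been seen, the strings were picked for their frequency in members, and the control libraries are those that chose the members, so no test is given. Of 5073 NRF1 sites, 21.8% and 23.8% had a peak pair within 50 bp in the knockdown pSTAT3 libraries, and 13.0%, 6.35% and 20.4% in the control pSTAT3 libraries. Of the 2182 reversed sites, 7.65% and 7.93% did so in knockdown and 3.90%, 1.05% and 7.33% in control pSTAT3 libraries. In the BCL9 libraries the share of NRF1 sites was 2.15% and 5.32% in knockdown cells and 0.97%, 0.49% and 2.92% in control cells. That of reversed sites was lower in each, at 1.56% and 2.98% in knockdown cells and 0.60%, 0.27% and 1.56% in control cells. The log2 ratio of the NRF1 share to the reversed share was 1.78 ± 0.46 in pSTAT3 libraries and 0.75 ± 0.18 in BCL9 libraries (SD, n = 5 each). These SDs, and those for AP-1 below, pool knockdown and control libraries and so measure no spread within 1 group. Some ratios rest on few reversed sites with a peak pair: 13 and 6 in control BCL9 libraries 1 and 2, and 23 in control pSTAT3 library 2. Every pSTAT3 library, at 1.48 or above, exceeded every BCL9 library, at 0.90 or below, a difference of 1.03. In the knockdown libraries alone, which the choice of members did not use, the linear ratios were 2.84 and 3.00 for pSTAT3 and 1.38 and 1.79 for BCL9. For the 10021 AP-1 sites the ratio was 2.20 ± 0.35 in pSTAT3 libraries and 1.41 ± 0.24 in BCL9 libraries (SD, n = 5 each), with linear ratios in the knockdown libraries of 4.00 and 4.05 for pSTAT3 and 2.51 and 2.46 for BCL9. In the single CTCF library the linear ratios were 1.28 for NRF1 and 0.98 for AP-1, and it has no replicate.

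**Figure D3:**
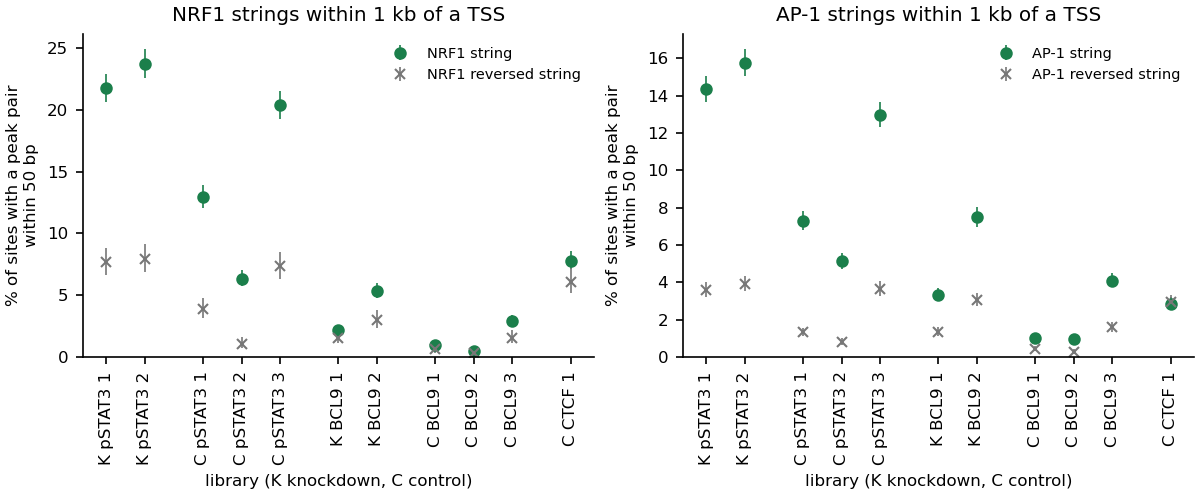
Percent of sites with a peak pair within 50 bp in each library, for NRF1 strings and AP-1 strings within 1 kb of a TSS (circles) and their reversed letters (crosses), with 95% Wilson intervals. In pSTAT3 libraries the NRF1 sites reach 6.35% to 23.8% and stand clear of the reversed sites. In BCL9 libraries they lie between 0.49% and 5.32%, and above the reversed sites in every library, by 1.38 to 1.87 times. The shares also follow the length of the lists. With lists of equal length NRF1 sites were at 1.36% to 3.17% in pSTAT3 and 0.39% to 0.87% in BCL9 libraries.

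In each library of BCL9-knockdown cells a smaller share of members than of distal regions had a window. This order was not particular to knockdown cells. The control pSTAT3 libraries, which chose both classes, had a window at 79.1%, 50.2% and 93.9% of members, against 80.9%, 52.6% and 96.1% of distal regions. In control BCL9 libraries 1, 2 and 3 the shares were 4.95%, 3.01% and 27.8% of members, against 4.30%, 3.17% and 34.2% of distal regions. A pSTAT3 window was at 69.1% and 71.2% of members in knockdown libraries 1 and 2, against 76.6% and 79.8% of distal pSTAT3-only regions, and at 89.9% and 91.6% of promoter shared regions. A BCL9 window was at 25.3% and 45.3% of members in knockdown libraries 1 and 2, against 30.2% and 54.9% of distal pSTAT3-only regions. The members were lower in 4 of 4 knockdown libraries, at -7.58 and -8.61 percentage points for pSTAT3 and -4.90 and -9.53 for BCL9. The mean was -7.65 ± 2.00 (SD, n = 4), with an exact two-sided sign-flip permutation p of 0.125. That is the smallest p that 4 libraries allow and so unable to pass 0.05. The 4 libraries are 2 of each antibody, so the SD and p do not measure the spread between replicates of 1 group. All promoters at the same offsets and widths had a pSTAT3 window in 15.0% and 16.9% of cases, so the member shares were 4.59 and 4.22 times as high. They had a BCL9 window in 5.57% and 13.3% of cases, with member shares 4.54 and 3.41 times as high. The excess over all promoters was thus not particular to pSTAT3. The lists differ in length, and with every list cut to its 24728 strongest peak pairs the shares of the same members were 8.57% and 8.18% for pSTAT3 and 9.48% and 6.20% for BCL9.

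Both knockdown pSTAT3 libraries had a window at 1887 members (57.4%), where the share over all control pSTAT3 regions was 74.2%. Neither had one at 563 members, of which 3.55% held the NRF1 string, 3.20% the AP-1 string and 4.62% were in all 3 control libraries. Both knockdown BCL9 libraries had a window at 553 members (16.8%), against 34.6% of all control pSTAT3 regions and 67.9% of promoter shared regions. Of those 553, 206 had no window in any control BCL9 library. A window in both libraries cannot be more frequent than in 1 alone, where the shares were 25.3% in replicate 1 and 45.3% in replicate 2. Members that were in all 3 control pSTAT3 libraries were found more often, with 87.0% in both knockdown pSTAT3 libraries and 28.6% in both knockdown BCL9 libraries.

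**Figure D4:**
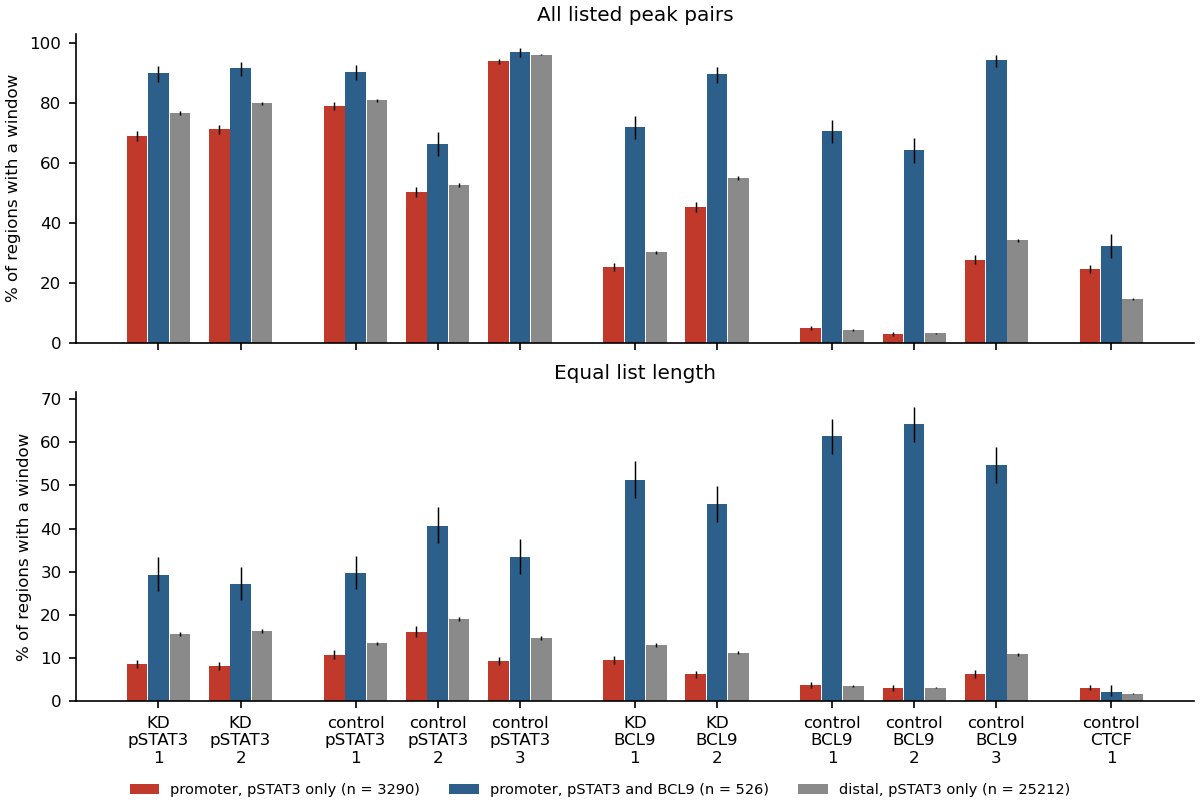
Percent of members, promoter shared and distal pSTAT3-only regions with a window in each library, with 95% Wilson intervals, for all listed peak pairs (top) and for lists of equal length, 24728 peak pairs (bottom). KD is BCL9 knockdown. Control pSTAT3 and BCL9 bars reflect how the classes were chosen. Members lie below both other classes in the knockdown libraries (69.1% and 71.2% for pSTAT3, 25.3% and 45.3% for BCL9), as in the control pSTAT3 libraries.

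The strength of the windows is given as a description, because control values entered the choice of members and distal regions. The median of the strongest window was 9 tags at members in both knockdown pSTAT3 libraries, against 12 and 13 tags at distal pSTAT3-only regions, whereas in control pSTAT3 libraries it was 5, 7 and 7 tags at members and 5, 7 and 8 tags at distal regions. The log2 ratio of members to distal regions was -0.42 and -0.53 in knockdown libraries and 0.00, 0.00 and -0.19 in control libraries. The difference between knockdown and control means was -0.41, and with lists of equal length it was -0.06.

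CTCF, the insulator protein, was measured in 1 control library. It had a window at 810 members (24.6%), against 14.6% of distal pSTAT3-only regions, 32.3% of promoter shared regions, 17.4% of all control pSTAT3 regions and 11.3% of all promoters at the same offsets and widths. The windows at members were mostly weak, with a median of 7 tags, and among the 24728 strongest CTCF peak pairs 3.1% of members had one, against 2.09% of promoter shared and 1.72% of distal regions, so the order of members and promoter shared regions turned. Strong ones stood at ATP5MC2 with 182 tags, MRPL38 with 120 tags and RPL36 with 104 tags. The NRF1 string was as frequent in members with a CTCF window (7.78%) as in those without (7.90%).

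Of 19748 protein-coding genes, 2928 (14.8%) had a member within 1 kb of a TSS, and 578 had more than 1. The number of annotated TSSs differs between genes, with a median of 4 for genes with a member and 3 for all. SEPTIN9 had most, with 12 regions over 28 annotated TSSs, followed by the keratin gene KRT8 with 10 regions over 10 TSSs, and CLIP4 and SEMA4B with 6 each. The 18 gene lists were chosen with earlier results of these data known, so their shares are given without tests.

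Genes of the IL-6 and STAT3 pathway were among those with members. In the gp130 and JAK-STAT list 9 of 30 genes had one, among them the cytokines IL6 and IL11, the receptors IL6R and IL6ST, the factors STAT3 and STAT6 and the feedback inhibitors SOCS2 and SOCS3. The STAT3 promoter region, 271 bp upstream of the TSS and holding a cyclic AMP response element, had 49 and 40 pSTAT3 tags in knockdown libraries, against 5, 8 and 48 tags in control libraries. The SOCS3 region, 70 bp upstream, held the STAT string in its central 100 bp but not at its strongest peak pair. It had 17 and 26 tags in knockdown libraries, against 7 and 20 tags in control replicates 1 and 3. Control replicate 2 had no window. At IL6R, the region in an intron with the AP-1 string had 27 and 20 tags in knockdown libraries, against 15, 8 and 21 tags in control libraries. The STAT3 and IL6R groups overlapped, and both knockdown values of IL6R lay within or above the control range. In the list of STAT3 target genes 15 of 30 (50.0%) had a member, of which 2 (SOCS3 and IRF1) held the STAT string and 2 (MCL1 and MMP9) the AP-1 string. Of all 2928 genes with a member, 108 held the STAT string and 421 (14.4%) the AP-1 string, so the AP-1 share of 13.3% was near that of all.

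Early response genes were also frequent. In the list of AP-1, CREB and ATF factors 7 of 22 (31.8%) had a member, and in that of MAPK feedback and immediate early genes 10 of 24 (41.7%). FOSL2, a FOS family member, had 56 and 23 pSTAT3 tags in knockdown libraries, against 12, 12 and 13 tags in control libraries, with no window in any BCL9 library. FOS had 30 and 43 tags in knockdown libraries, against 7, 16 and 15 tags in control libraries. Knockdown and control tags did not overlap at either gene, as at 30.6% of the members with windows in all 5 pSTAT3 libraries. At EGR1, a zinc finger factor of the immediate early response, they were 24 and 22 tags in knockdown libraries, against 13 and 9 tags in control replicates 1 and 3. JUNB had 15 and 23 tags in knockdown libraries, against 4, 6 and 5 tags in control libraries.

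Epithelial genes had the highest share, 18 of 34 (52.9%), and 10 of the 18 genes had a member found in all 3 control libraries (26.7% of all genes with a member did), a count that rests on the presence that chose the members. KRT16, a keratin of activated keratinocytes, had an AP-1 string at its region and 30 and 38 pSTAT3 tags in knockdown libraries, against 11, 11 and 46 tags in control libraries. EPCAM, an epithelial adhesion molecule, had 29 and 17 tags in knockdown libraries, against 10, 8 and 26 tags in control libraries. Knockdown and control tags overlapped at both genes.

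Housekeeping lists differed among themselves. Among splicing factors 23 of 57 genes (40.4%) had a member, and 8 of the 23 held the NRF1 string (34.8%), against 10.9% of all genes with a member. HNRNPL had 23 and 41 pSTAT3 tags in knockdown libraries, against 17, 12 and 29 tags in control libraries. HNRNPA1 had 17 and 19 tags in knockdown libraries, against 18, 14 and 13 tags in control libraries, with no window in any BCL9 library. Respiratory chain genes, of which NRF1 is a known regulator, had members at 14 of 83 (16.9%), near the share of all genes, and 5 of these held the NRF1 string. At NDUFA3, a subunit of complex I, the tags were 26 and 26 in knockdown libraries, against 10, 13 and 17 in control libraries. Heat shock and unfolded protein response genes had members at 12 of 28 (42.9%), with the NRF1 string at the chaperone genes HSPA8 and HSP90AA1.

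Several lists stayed close to the 14.8% of all genes or below it. Shares were 23.1% for proteasome subunits (9 of 39), 20.0% for RNA polymerase II and general factors (8 of 40), 19.3% for cytosolic ribosomal proteins (16 of 83), 15.4% for mitochondrial ribosomal proteins (12 of 78) and 13.2% for ZNF genes (67 of 508). The Wnt list, which holds BCL9, its paralogue and β-catenin, had 4 of 29 (13.8%), with CTNNB1 at 6 and 10 pSTAT3 tags in knockdown libraries, against 10 and 8 tags in control replicates 1 and 2. Replication and cell cycle genes had 4 of 38 (10.5%), histone genes 6 of 64 (9.38%), interferon response genes 2 of 29 (6.90%) and genes of other tissues 2 of 30 (6.67%), the last being GFAP and SYN1.

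**Figure D5:**
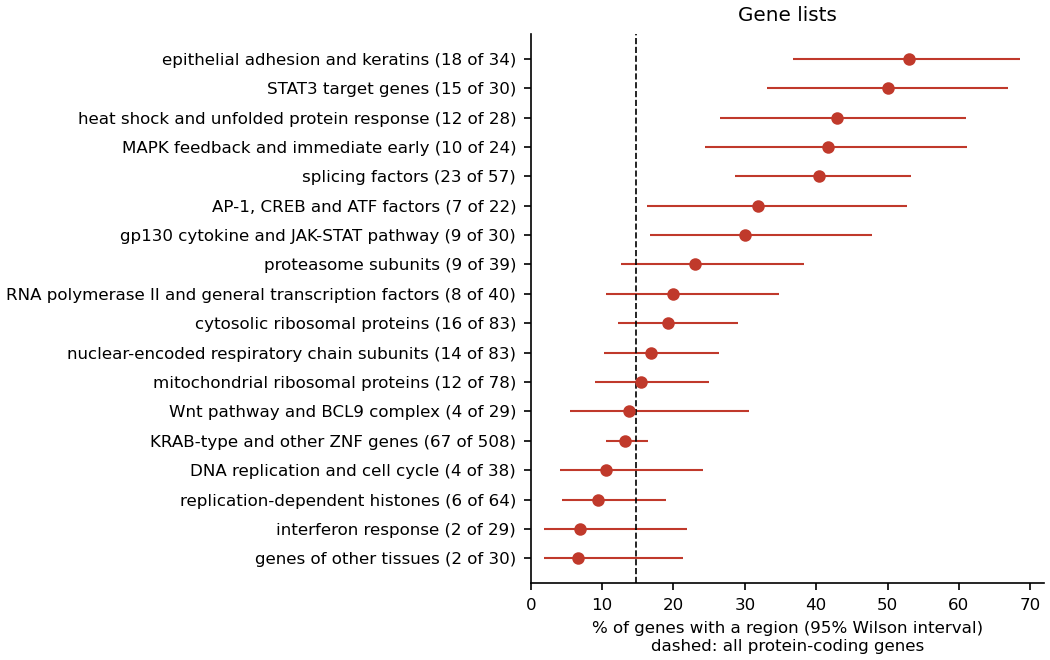
Share of genes (percent), list by list, that had a promoter pSTAT3-only region within 1 kb of a TSS, with 95% Wilson intervals, and the share of all protein-coding genes (dashed, 14.8%). Epithelial genes (52.9%) and STAT3 targets (50.0%) are at the top with all listed peak pairs, and interferon response genes (6.90%) and genes of other tissues (6.67%) at the bottom. With lists of equal length 8.82% of epithelial genes (3 of 34) and 3.33% of STAT3 targets (1 of 30) had a region, against 1.64% of all protein-coding genes. The order of the lists then changes, on very few genes.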

How the data were processed

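ChIP-exo with antibodies against pSTAT3, BCL9 and CTCF gave 1 list of peak pairs per library, and 11 libraries were used. The library made with IgG was not analysed here. The deposited lists, made by the authors, give the 2 borders of a peak pair on hg19 and a signal. Within 1 library each signal value is a whole multiple of a fixed step, called a tag here. The fewest tags range from 3 to 9 and the lists from 24728 to 493174 peak pairs. The aligner and the origin of the step are not given in the sources used here. As software and build, bcl2fastq and hg19 stand in the submitters' processing notes. The program tag names a peak-pairing tool, while the methods name another peak caller for merged replicates. The number of reads was not used here, so depth is unknown, and intervals on shares of regions cover counting error only.

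A shared length of 1 bp counted as overlap. TSSs are 78394 positions of protein-coding transcripts in GENCODE release 44 lifted to GRCh37. Strings were searched on both strands of GRCh37. Shares at all promoters place each member's offset and width at every TSS. For equal list length, every list was cut to its 24728 strongest peak pairs. Groups followed the labels. Classes were compared over the 4 knockdown libraries by exact sign flips, and the planned permutation test of tags between knockdown and control pSTAT3 libraries is not given, since the control lists chose the regions.

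The members and gene lists were chosen with earlier results of these data known. Motif strings were written after the lists could be read, and the comparison of strings at all promoters was added after seeing the data. Named regions were the 15 with the highest mean percentile over 3 control pSTAT3 lists, the 10 highest over the knockdown lists, the 2 on each side of the 1 kb limit, up to 6 genes per list and the genes with most regions. Sequences came from the best-ranked exon-free members holding a string, and the text names some of the genes this rule gave; some others are not reported here. Scripts were tested on simulated data. The tools were samtools 1.23.1, pysam 0.24.0, scipy 1.17.1, pandas 2.3.3, numpy 2.4.6, matplotlib 3.10.9 and Python 3.11.15.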

Additional observations from a re-analysis of the deposited data

How the results depend on the processing

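The number of members depended on the lists and thresholds. It was 304 with lists of equal length, 762 with windows from 3 of 3 control pSTAT3 libraries, 2159 with no window of any control BCL9 library, 599 with at least 9 tags, 1566 without replicate 1 of the control pSTAT3 and BCL9 libraries, which name a single sequencing run (chosen after seeing the data), and 949 to 3617 without 1 control library. In the order equal length, 3 of 3 libraries and no single-run controls, a pSTAT3 window in both knockdown libraries was at 42.1%, 87.0% and 66.8% of members, a BCL9 window in both at 12.2%, 28.6% and 23.6%, and genes with a member were 1.64%, 3.96% and 7.77%. The BCL9 share was 9.54% with no control BCL9 window and 14.2% with 50 bp of overlap. Without 1 control library the BCL9 share ranged from 19.0% to 22.0%. With 1 knockdown library in place of both, which can only raise a share, it was 25.3% and 45.3%. The pSTAT3 share was then 69.1% and 71.2%. CTCF windows were at 1.64% with equal length and 27.6% with 3 of 3 libraries. The AP-1 string was in 18.2% of members in 200 bp and 23.2% in 3 of 3 libraries, and the NRF1 string in 11.6% and 13.6%. With equal length the order of members and promoter shared regions in CTCF windows turned (3.1% and 2.09%). STAT3 targets had a member at 3.33% of genes with equal length (1 of 30) and 16.7% in 3 of 3 libraries (5 of 30). They were below heat shock genes (7.14%, 2 of 28) in one and MAPK genes (29.2%) in the other, while epithelial genes had 8.82% and 29.4%. Of such list values 32 moved and 4 did not. These are raw shares, and the share over all genes itself fell to 1.64% and 3.96%. The difference between members and distal regions stayed negative, at -10.2 to -5.54 percentage points, and the knockdown difference in tags at -0.47 to -0.06. With a replicate block, pairing libraries 1 and 2, the knockdown difference in tags was -0.47. Same-numbered libraries had correlations of deviations of -0.00655 and -0.0216. With 2 knockdown libraries, whose deviations mirror each other, these cannot show whether same-numbered libraries were paired. The pSTAT3 minus BCL9 difference in log2 ratio at NRF1 sites was 2.32 with equal length and 0.83 to 1.11 without 1 library, and at AP-1 sites 1.66 and 0.68 to 0.89. The 2.32 rests on very few of the 2182 reversed sites. In pSTAT3 libraries 4 and 1 of them had a peak pair in knockdown and 6, 8 and 8 in control cells. In BCL9 libraries it was 6 and 3 in knockdown and 11, 6 and 4 in control cells. The length of the lists limits which weak regions can be seen, and absence of a window is not absence of binding.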
